A study of Homo sapiens with 15 samples.

Results

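Metallothioneins are small cysteine-rich proteins that bind zinc and copper, and the transcripts of 5 of them, MT1E, MT1F, MT1M, MT1X and MT2A, were followed across cultures of human kidney epithelium and skin fibroblasts. The members were taken by gene name from the deposited gene table: 5 of the 6 names on the list had a row among its 15790 genes, and MT1G was not analysed here. All 5 passed the filter on low values and were tested. RNA was sequenced from RPTEC/TERT1 cells, which are immortalized kidney proximal tubule cells, grown alone or with immortalized skin fibroblasts from foreskin, the line fHDF/TERT166. The cells lay on a membrane containing recombinant spider silk, called LN/FN-silk, or on a second membrane, called LN/PC.

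The 5 groups held 3 libraries each. Silk monocultures and LN/PC monocultures were RPTEC/TERT1 cells alone, seeded at 140000 cells per cm2. Silk co-cultures and LN/PC co-cultures received fHDF/TERT166 cells at 14000 per cm2 just before the same number of epithelial cells. The fifth group was fHDF/TERT166 cells collected from the bottom of the well. Its sample titles say monoculture, whereas the protocol speaks of basolateral cells, so whether these fibroblasts grew without epithelium nearby is not clear, and they are called monocultures here after the titles. Work began on day 14 after seeding, and each sample pooled 3 to 8 membranes. Co-cultures and epithelial cells were kept in a medium with 36 ng/ml hydrocortisone, a glucocorticoid, 5 µg/ml transferrin, 5 ng/ml selenite and 0.5% serum, so the 4 epithelial groups shared that steroid. The labels do not say which medium the fibroblast monocultures had in these 14 days. Cultures on silk were scraped off and those on LN/PC were cut out with their membrane, so effects of membrane and of harvest cannot be told apart.

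Metallothioneins hold zinc and copper through their cysteines and give them up to other proteins, and they take up toxic metals such as cadmium. In the proximal tubule they are best known for binding cadmium that reaches the kidney. Their genes are switched on by the zinc-sensing transcription factor MTF1, which binds short metal response elements in their promoters, and glucocorticoids and oxidative stress are further known inducers. MT2A is the widely expressed form, and the MT1 genes are a family of close copies.

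The 5 genes lie in one cluster on the plus strand of chromosome 16. On GRCh38 with the GENCODE 29 annotation, MT2A spans chr16:56608199-56609497, MT1E chr16:56625475-56627112, MT1M chr16:56632233-56633986, MT1F chr16:56657694-56660698 and MT1X chr16:56682424-56684196. Each coding sequence has 183 bases, or 61 codons, of which 20 (32.8%) encode cysteine. Pairwise identity of the coding sequences ran from 88.5% (MT1F and MT1X) to 92.3% (MT1E with MT1M and with MT2A, and MT1X with MT2A). The first 90 coding bases are given because they show how few letters tell the copies apart. Capitals mark bases that differ from MT2A.
MT2A: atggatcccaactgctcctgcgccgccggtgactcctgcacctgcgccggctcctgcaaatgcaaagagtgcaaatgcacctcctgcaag
MT1E: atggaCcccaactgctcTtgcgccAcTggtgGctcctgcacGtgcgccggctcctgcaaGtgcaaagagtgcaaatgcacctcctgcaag
MT1F: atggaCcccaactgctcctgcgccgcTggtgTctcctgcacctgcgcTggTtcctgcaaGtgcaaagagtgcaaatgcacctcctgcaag
MT1M: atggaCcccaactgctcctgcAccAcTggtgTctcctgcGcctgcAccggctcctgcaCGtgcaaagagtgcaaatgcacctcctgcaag
MT1X: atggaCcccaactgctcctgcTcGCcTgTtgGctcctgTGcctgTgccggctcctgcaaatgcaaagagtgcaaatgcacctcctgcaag
MT1F differed from MT2A at 6 of these 90 bases, MT1E at 7, MT1M at 9 and MT1X at 10.

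Such likeness matters for the counts, since a read that lies in a shared stretch can be given to the wrong copy. Of all 31-base words in its annotated transcripts, MT1F shared 3.25% with another gene, MT2A 7.25%, MT1E 15.6%, MT1X 19.8% and MT1M 23.8%. MT1E shared most with MT1M (8.99% of its words). MT1X shared most with AC026461.1 (16.0% of its words). Values of MT1M, MT1X and MT1E therefore carry more uncertainty about their source than those of MT1F and MT2A. Any part of this sharing in the differences below was not tested.

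The promoter windows of MT2A and MT1X hold letter matches to the metal response element. RefSeq (GRCh38.p14) gave a 300-base window around its gene start for these 2 members, with 250 bases before that start (56608584 for MT2A and 56682470 for MT1X). The RefSeq start lies 385 bases downstream of the outermost GENCODE 29 start for MT2A and 46 bases downstream for MT1X. In GENCODE, all 250 bases of MT2A and the last 46 of MT1X therefore lie inside the annotated gene span. For MT1X the 204 bases before the GENCODE start are printed, and for MT2A 30 bases that hold 2 matches. Both are on the plus strand, with capitals at the metal response element core, TGCACNC or TGCGCNC on either strand.
MT2A, chr16:56608408-56608437: cgcggcccGTGTGCAgagccgggTGCGCCC
MT1X, chr16:56682220-56682423: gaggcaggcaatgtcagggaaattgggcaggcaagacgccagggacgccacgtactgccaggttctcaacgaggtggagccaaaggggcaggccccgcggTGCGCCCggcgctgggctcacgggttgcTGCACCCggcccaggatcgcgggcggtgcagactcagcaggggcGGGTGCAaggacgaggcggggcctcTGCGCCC
The MT2A window held 8 cores, 7 before the RefSeq start and 1 after it, and the MT1X window held 4, each before the GENCODE start as well. Of 35116 promoter windows of the same length, 29.6% held at least 1 core, 0.601% (211) held as many as MT1X and 0.0199% (7) held as many as MT2A. Both windows held 1 TATAAA box, found in 11.5% of windows, 2 GC boxes (GGGCGG, 2 or more in 26.7%) and 1 match to the antioxidant response element TGACNNNGC, found in 13.3%. The glucocorticoid receptor motif AGAACA, found in 14.8% of windows, was not among these letters. A match is a description of the letters only.

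Levels are normalized counts, computed from the deposited log2 values, with totals of 9.08 to 12.7 per library in units of 1e6, and 1 read stood for 0.755 to 1.24 normalized counts. They are not divided by gene length, so each gene is compared with itself across groups. Of 16 epithelial markers, 15 had a row, and none of these was at 0 in all 3 libraries of any epithelial or co-culture group, against 6 in the fibroblast group. These 15 summed to 17985 to 20935 normalized counts in fibroblasts and to 71168 to 98405 in the 4 epithelial groups. MME (8684 ± 524, SD, n = 3), ANPEP (11041 ± 1118) and CUBN (151 ± 40.7) were higher in fibroblasts than in epithelial monocultures, so they do not mark the epithelium here. The 14 fibroblast markers summed to 1012 to 1730 normalized counts in epithelial monocultures and to 527561 to 599199 in fibroblasts. They reached 98167 to 176917 in LN/PC co-cultures but only 1320 to 1587 in silk co-cultures. From 112 genes specific to the fibroblasts, the fibroblast share of the RNA was 13.0% ± 2.80 (SD, n = 3) in LN/PC co-cultures and 0.0457% ± 0.0597 (SD, n = 3) in silk co-cultures. In such bulk samples, fewer cells of a type and less RNA per cell cannot be told apart. LN/PC monoculture 2 stood apart from the other pair of its group: it was the highest of the 3 for all 5 members, at 1.27 times their mean for MT1E to 1.64 times for MT2A. Values of the members without it follow beside the comparisons. It was singled out from these same values, so leaving it out lowers the LN/PC monoculture means by construction. Larger differences without it are therefore no separate result.

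MT2A, the main inducible metallothionein of most tissues, was most abundant in LN/PC co-cultures and least abundant in fibroblasts. The LN/PC co-cultures gave 3681, 3886 and 5734 normalized counts (4434 ± 1131, SD, n = 3). LN/PC monocultures gave 1953, 3335 and 2126 (2471 ± 753), and silk monocultures 2389, 2692 and 2132 (2404 ± 280). Silk co-cultures gave 3008, 2562 and 3114 (2895 ± 293), and fibroblasts 1838, 1354 and 1528 (1573 ± 245). Every LN/PC co-culture library lay above the other 12, and every fibroblast library lay below the other 12. The 3 groups in between overlapped.

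MT1E followed the same order at the top, with a far deeper drop in fibroblasts. Its LN/PC co-cultures gave 1028, 1381 and 1526 normalized counts (1312 ± 256, SD, n = 3), and its LN/PC monocultures 648.4, 827.5 and 649.9 (709 ± 103). Silk monocultures gave 803.5, 982.2 and 786.5 (857 ± 108), and silk co-cultures 846.3, 822.4 and 963.1 (877 ± 75.3). Fibroblasts gave 121.7, 103.3 and 101.9 (109 ± 11.1). As with MT2A, the LN/PC co-cultures lay above all other libraries and the fibroblasts below them. Silk co-cultures overlapped silk monocultures, and these overlapped LN/PC monocultures.

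MT1X, a basally expressed and metal-inducible copy, gave 270.9, 380.0 and 427.1 normalized counts in LN/PC co-cultures (359 ± 80.1, SD, n = 3). LN/PC monocultures gave 134.4, 216.9 and 134.4 (162 ± 47.6). Silk monocultures gave 225.8, 257.4 and 260.9 (248 ± 19.4), silk co-cultures 237.1, 207.4 and 256.5 (234 ± 24.7), and fibroblasts 51.13, 42.15 and 34.04 (42.4 ± 8.55). The LN/PC co-cultures again lay above all other libraries. Here the LN/PC monocultures were the lowest epithelial group, below every silk monoculture, while 1 of them overlapped the silk co-cultures.

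MT1F had another order: it was highest in silk monocultures and close to undetected in fibroblasts. Silk monocultures gave 387.8, 284.1 and 313.0 normalized counts (328 ± 53.5, SD, n = 3), and silk co-cultures 283.8, 206.3 and 239.5 (243 ± 38.9). LN/PC monocultures gave 167.4, 236.5 and 159.2 (188 ± 42.5), and LN/PC co-cultures 193.0, 252.4 and 306.6 (251 ± 56.8). In fibroblasts it was at 0 in 2 libraries and at 2.19 in the other. All 4 epithelial groups lay far above the fibroblasts, and neighbours in the order of the epithelial groups overlapped.

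MT1M was the least counted member. It gave 46.61, 44.72 and 44.44 normalized counts in silk monocultures. Silk co-cultures gave 31.65, 51.95 and 60.42, and LN/PC co-cultures 30.01, 35.87 and 65.44. LN/PC monocultures gave 21.33, 31.48 and 18.67, and fibroblasts 7.532, 4.24 and 5.92. Silk monocultures lay in a narrow band above the LN/PC monocultures, the libraries of both co-culture groups were widely spread, and the fibroblasts lay below all others.

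**Figure D1:**
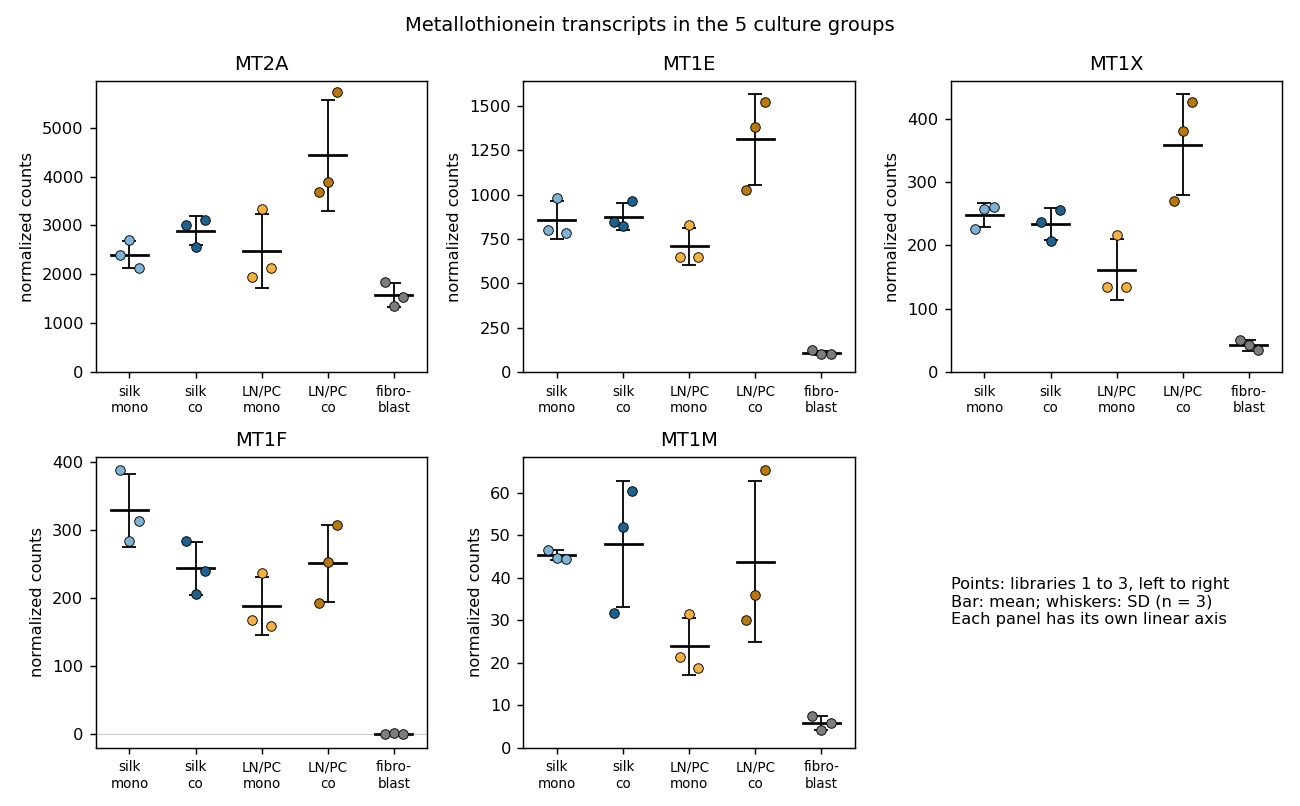
Normalized counts (linear axis, one per panel) of the 5 metallothioneins in the 5 groups. Points are libraries, bars are means and whiskers are SD (n = 3). LN/PC co-cultures are the highest group for MT2A (3681 to 5734), MT1E (1028 to 1526) and MT1X (270.9 to 427.1), but not for MT1F and MT1M, and fibroblasts are the lowest group in each panel.

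Adding fibroblasts on LN/PC went with higher MT1X, MT1E and MT2A. By limma on log2(value + 1), with p-values adjusted over 14433 tested genes (Benjamini-Hochberg), MT1X rose by 1.16 ± 0.22 (log2, SE), or 2.23-fold (adjusted p = 0.00181). MT1E rose by 0.88 ± 0.17, or 1.84-fold (adjusted p = 0.00191), and MT2A by 0.86 ± 0.21, or 1.81-fold (adjusted p = 0.0113). For these 3 genes all 3 co-cultures lay above all 3 monocultures, a pattern found for 13.8% of tested genes. MT1M differed by 0.80 ± 0.36 (adjusted p = 0.166) and MT1F by 0.41 ± 0.22 (adjusted p = 0.246), with overlapping groups. Thus 3 of 5 members were called higher, against 7.80% of all tested genes, and the median difference was 0.86 against -0.04 for all genes.

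The calls of MT1E and MT1X held under all 13 alternative settings, with MT1X between 0.87 and 1.39 and MT1E between 0.76 and 1.09. Without LN/PC monoculture 2, MT2A was 1.09 (adjusted p = 0.000541), MT1X 1.39 (adjusted p = 0.000202) and MT1E 0.99 (adjusted p = 0.000772), while MT1F (0.59, adjusted p = 0.0964) and MT1M (1.01, adjusted p = 0.0978) were still not called. MT2A was not called without LN/PC monoculture 1 (0.71, adjusted p = 0.0702), without LN/PC co-culture 3 (0.66, adjusted p = 0.064) or with only the 6 compared libraries in the fit (adjusted p = 0.051). LN/PC co-culture 3 was the highest of its group for all 5 members.

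Fibroblast RNA moved with this comparison, and it held less of every member. An arithmetic mixture of the monocultures, at each library's own fibroblast share of 13.9%, 9.81% or 15.2%, would give 617.6 to 649.7 normalized counts of MT1E, and the measured values were 1.64 to 2.47 times that. For MT1X the measured level was 1.86, 2.53 and 2.97 times the mixture, and for MT2A 1.57, 1.63 and 2.46 times. MT1F stood at 1.19 to 1.92 times and MT1M at 1.41 to 3.10 times. All 15 ratios were above 1, but the members share the same co-culture libraries, so these ratios are not independent. Fibroblasts held less of every member, so each mixture lay below the LN/PC monoculture mean, which every LN/PC co-culture value already exceeded. A ratio above 1 was thus no separate result. The mixture uses group means and carries no spread of the monocultures, and MT1F and MT1M were not called. It also takes the median share as exact, although single fibroblast genes disagreed on that share. With the highest library of each monoculture group in its place, a setting chosen after seeing the data, 14 of 15 ratios were above 1. MT1F then ran from 0.946 to 1.53, MT1M from 1.07 to 2.35 and MT2A from 1.18 to 1.84. Which of the cell types held the added transcripts was not tested.

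**Figure D2:**
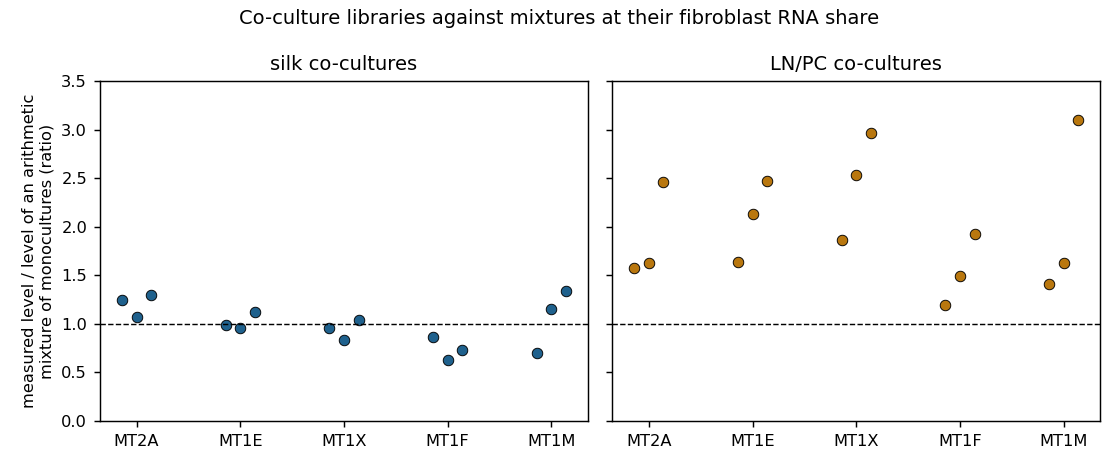
Measured level of each member in each co-culture library divided by the level of an arithmetic mixture of the matching epithelial monocultures and fibroblasts at that library's fibroblast RNA share (ratio, linear axis). Each point is 1 library and the dashed line marks 1. With group means in the mixture, the LN/PC points lie above 1 (1.19 to 3.10), and the silk points lie between 0.628 and 1.34.

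On silk, where co-cultures held almost no fibroblast RNA, no member was called. Of the 5 members, 0 passed limma's adjusted threshold and 0 had an unadjusted p under 0.05, where 3.78% of all tested genes were called in either direction. MT2A differed by 0.27 ± 0.21 (log2, SE, adjusted p = 0.572) and MT1F by -0.43 ± 0.22 (adjusted p = 0.341). MT1E (0.04), MT1M (0.03) and MT1X (-0.09) were close to 0. MT1F was the member whose silk co-cultures all lay below the silk monocultures, as was so for 12.4% of tested genes. The nearest libraries were almost level, at 283.8 normalized counts in silk co-culture 1 and 284.1 in silk monoculture 2. Its measured level was 0.628 to 0.865 times the mixture of monoculture means, whereas MT1E stood at 0.959 to 1.12 times.

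The co-culture differences on the 2 membranes were then set against each other by an interaction term. For MT1X the difference on silk was 1.25 ± 0.31 (log2, SE) below that on LN/PC (-1.25, adjusted p = 0.0203), and for MT1E it was lower by 0.84 ± 0.24 (-0.84, adjusted p = 0.0399). MT1F (-0.84 ± 0.31, adjusted p = 0.119), MT1M (-0.77 ± 0.51, adjusted p = 0.406) and MT2A (-0.59 ± 0.29, adjusted p = 0.258) did not pass. So 2 of 5 members were called lower, against 4.59% of all tested genes. For MT2A, a call on LN/PC beside none on silk was therefore not a shown difference between membranes. The MT1E call was kept in 10 of 19 alternatives and that of MT1X in 14 of 19. MT1X missed the threshold without silk monoculture 2 (-1.22, adjusted p = 0.0506), silk monoculture 3 (-1.21, adjusted p = 0.0517), silk co-culture 2 (-1.16, adjusted p = 0.0643), LN/PC monoculture 1 (-1.13, adjusted p = 0.0554) or LN/PC co-culture 3 (-1.11, adjusted p = 0.0634). MT1E kept it without silk monoculture 1, LN/PC monoculture 2 (-0.96, adjusted p = 0.0148) or LN/PC co-culture 1, and without any 1 of the other 9 libraries it stood at -0.72 to -0.91 with adjusted p from 0.0522 to 0.116. Without LN/PC monoculture 2, 4 members were called, adding MT1F (-1.02, adjusted p = 0.0439) and MT2A (-0.82, adjusted p = 0.0461) to MT1E and MT1X (-1.47, adjusted p = 0.00278), and MT1M stood at -0.98 (adjusted p = 0.279). That library was singled out as the highest of its group for every member, so these added calls are no separate result.

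**Figure D3:**
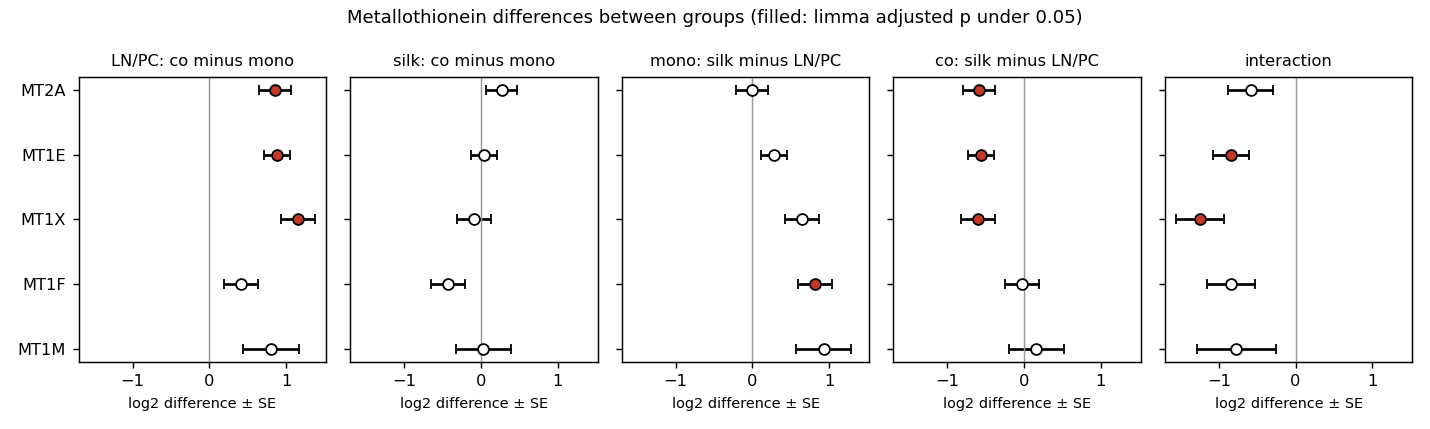
Log2 differences (points, with SE as whiskers) of the 5 members in the 4 comparisons between epithelial groups and in the interaction, which is the co-culture difference on silk minus that on LN/PC. Filled points have an adjusted p under 0.05 by limma: MT2A, MT1E and MT1X for co-culture on LN/PC and for silk against LN/PC co-cultures, MT1F for silk against LN/PC monocultures, and MT1E and MT1X for the interaction.

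Between the monocultures, which differ in membrane, MT1F was 1.76-fold higher on silk (0.81 ± 0.22, log2, SE, adjusted p = 0.0266 by limma). Its 284.1 to 387.8 normalized counts on silk lay above the 159.2 to 236.5 on LN/PC. MT1X (0.65 ± 0.22, adjusted p = 0.0665) and MT1M (0.93 ± 0.36, adjusted p = 0.102) also had groups that did not overlap but missed the threshold. MT1E differed by 0.28 ± 0.17 (adjusted p = 0.292) and MT2A by -0.0047 ± 0.21 (adjusted p = 0.998). The 1 call of 5 stands against 5.88% of all tested genes called higher, and the 3 members whose groups did not overlap against 14.2%.

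The call of MT1F between monocultures depended on most single libraries. MT1F was no longer called without silk monoculture 1 (0.69, adjusted p = 0.106), silk monoculture 3 (0.84, adjusted p = 0.0563), LN/PC monoculture 1 (0.74, adjusted p = 0.0841) or LN/PC monoculture 3 (0.71, adjusted p = 0.107), nor with only the 6 compared libraries in the fit (0.81, adjusted p = 0.0561). Without LN/PC monoculture 2, MT1F (0.99, adjusted p = 0.00597), MT1X (0.88, adjusted p = 0.00853) and MT1M (1.14, adjusted p = 0.0456) were all called higher on silk, whereas MT1E (0.39, adjusted p = 0.116) and MT2A (0.23, adjusted p = 0.388) were not.

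Between the co-cultures, MT1E, MT1X and MT2A were lower on silk. MT1X was lower by 0.60 ± 0.22 (-0.60, log2, SE, adjusted p = 0.0441 by limma), MT2A by 0.59 ± 0.21 (-0.59, adjusted p = 0.0351) and MT1E by 0.56 ± 0.17 (-0.56, adjusted p = 0.0163), each about 1.5-fold (1.51, 1.51 and 1.48). MT1F (-0.03 ± 0.22, adjusted p = 0.93) and MT1M (0.16 ± 0.36, adjusted p = 0.753) had overlapping groups. These 3 calls of 5 stand against 17.6% of all tested genes called lower, and the same 3 genes had silk libraries all below LN/PC libraries, as did 26.2% of tested genes. This comparison shares the LN/PC co-cultures with the comparison of LN/PC cultures above, so its values are not a second measurement. Without LN/PC co-culture 3, none of the 3 was called (MT1E -0.44, adjusted p = 0.0761; MT1X -0.46, adjusted p = 0.153; MT2A -0.39, adjusted p = 0.159). None was called after rescaling on epithelium-restricted genes, without silk co-culture 1 (adjusted p from 0.053 for MT1E to 0.0882 for MT1X) or without silk co-culture 2 (0.0624 for MT1E to 0.144 for MT1X) either. MT1X was also lost with upper-quartile rescaling (-0.59, adjusted p = 0.0573), without silk co-culture 3 (-0.67, adjusted p = 0.0693) and without LN/PC co-culture 2 (-0.55, adjusted p = 0.115). MT2A was lost without silk co-culture 3 (-0.65, adjusted p = 0.0624) and MT1E without LN/PC co-culture 2 (-0.52, adjusted p = 0.061).

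Fibroblasts held less of all 5 members than the epithelial monocultures did. MT1E was lower by 2.82 ± 0.14 (-2.82, log2, SE, adjusted p = 9.5e-09 by limma), or 7.08-fold, and MT1X by 2.21 ± 0.22 (-2.21, adjusted p = 4.25e-06), or 4.63-fold. MT1M was lower by 2.31 ± 0.28 (-2.31, adjusted p = 2.23e-05) and MT2A by only 0.62 ± 0.18 (-0.62, adjusted p = 0.0109), or 1.54-fold. For MT1F about 2 reads stood in the 3 fibroblast libraries against 1725 in the 6 epithelial monocultures, a ratio of 397 with a 95% exact interval of 110 to 3278 that covers counting error only. The 5 calls of 5, with every fibroblast library below every epithelial monoculture, stand against 30.3% of all tested genes called lower and 25.4% with such a lack of overlap. MT1F and MT1M were under 10 in every fibroblast library, so they passed the low-value filter only through the epithelial monocultures. Their lower direction was thus largely set by the filter and adds no support to that count. Cell type, medium and growth surface cannot be told apart here. The call of MT2A was lost without fibroblast library 2 (-0.52, adjusted p = 0.0563). Over the 15 alternative settings, MT1M ran from -2.48 to -0.68 and MT1X from -2.35 to -1.29. Both were called in all 15, but the size of their differences depended on the setting. Without LN/PC monoculture 2 all 5 members were called, MT1E at -2.77, MT1X at -2.10, MT1M at -2.20 and MT2A at -0.50 (adjusted p = 0.00615).

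The size of the pool and its make-up were also compared. The 5 genes together took 0.0578% ± 0.0173 (SD, n = 3) of all normalized counts in LN/PC co-cultures, 0.0361% ± 0.0130 in LN/PC monocultures, 0.0422% ± 0.00352 in silk co-cultures, 0.0419% ± 0.00412 in silk monocultures and 0.0139% ± 0.00235 in fibroblasts. By library, these shares were 0.0443%, 0.0518% and 0.0773% in LN/PC co-cultures. They overlapped those of LN/PC monocultures (up to 0.0512%), silk monocultures (up to 0.0461%) and silk co-cultures (up to 0.0449%). Only fibroblasts (0.012% to 0.0166%) lay apart from all other libraries. As summed normalized counts, LN/PC co-cultures (5203 to 8059) lay above all other libraries (up to 4648). MT1F made up 8.53% ± 1.72 of the 5-gene sum in silk monocultures, 5.32% ± 0.349 in LN/PC monocultures, 5.66% ± 0.686 in silk co-cultures but 3.92% ± 0.290 in LN/PC co-cultures. In fibroblasts MT2A made up 90.8% ± 0.821 of the sum, against 61.8% to 69.1% in the group means of epithelial cultures. The share of MT1F thus fell in different ranges in silk monocultures (6.67% to 10.1%) and in LN/PC co-cultures (3.71% to 4.25%), whereas MT1E stayed between 20.3% and 22.1% in the means of the 4 epithelial groups. These shares were not tested.

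**Figure D4:**
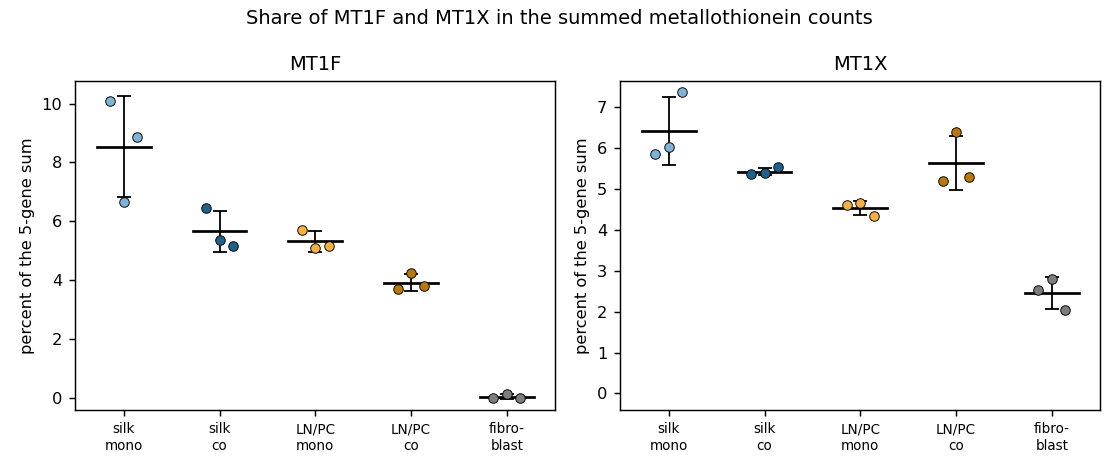
Share of MT1F and MT1X in the summed normalized counts of the 5 members (percent, linear axis, not corrected for gene length). Points are libraries, bars are means and whiskers are SD (n = 3). MT1F runs from a mean of 8.53% in silk monocultures to 3.92% in LN/PC co-cultures and 0.0485% in fibroblasts, while the MT1X means of the epithelial groups lie between 4.54% and 6.43%.

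Of 11 other metallothionein names looked for, MT1A and MT3 had a row, and neither passed the filter on low values. MT3, a form known mainly from brain, was at 0 in 12 libraries and at 18.8, 3.40 and 14.5 normalized counts in LN/PC co-cultures, about 15.2, 2.75 and 17.1 reads. With a floor of 3 reads per library, their mean was at least 4.26-fold higher than in LN/PC monocultures and at least 4.03-fold higher than in fibroblasts. LN/PC co-culture 2, at about 2.75 reads, was itself under that floor, so this excess rests on LN/PC co-cultures 1 and 3. An exact permutation test against LN/PC monocultures gave a two-sided p of 0.1, the lowest it can give with 3 libraries a group. MT3 shares sequence words with MT1E, MT1F, MT1M and MT1X, and any part of stray reads from them was not tested. MT1A had about 9 reads over all 15 libraries.

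Among the factors that act on metallothionein genes, NR3C1 rose with co-culture and MTF1 was not called. MTF1, the zinc sensor, gave 212.0, 325.1 and 85.97 normalized counts in LN/PC monocultures and 95.97, 165.8 and 160.1 in LN/PC co-cultures, with overlapping groups (-0.40 ± 0.37, log2, SE, adjusted p = 0.525). It was not called in any of the 6 tests, and its own spread was wide. Silk co-cultures gave 208.2, 228.8 and 292.8 normalized counts of MTF1, all above the LN/PC co-cultures, where MT1E, MT1X and MT2A were called lower on silk. NR3C1, the glucocorticoid receptor, gave 914.0, 879.4 and 844.5 in LN/PC monocultures and 1249, 1390 and 1352 in LN/PC co-cultures. It rose by 0.60 ± 0.13 there (adjusted p = 0.00499) and by 0.63 ± 0.13 in silk co-cultures (adjusted p = 0.00912). Thus NR3C1 was called in both co-cultures, and its interaction was 0.03 ± 0.18 (adjusted p = 0.937). Its silk monocultures gave 562.2, 603.2 and 661.0 and its silk co-cultures 890.9, 945.6 and 989.0 normalized counts. In monocultures and in co-cultures alike, all its silk libraries lay below all its LN/PC libraries. Fibroblasts held 2066 ± 68.9 (SD, n = 3) of NR3C1, the highest of the 5 groups. NFE2L2, which drives antioxidant genes, was lower on silk in monocultures (-0.87 ± 0.25, adjusted p = 0.0336) and in co-cultures (-1.25 ± 0.25, adjusted p = 0.00118), and so was STAT3 (-1.46 ± 0.27, adjusted p = 0.00319, and -0.90 ± 0.27, adjusted p = 0.0161). Both were widely spread in LN/PC monocultures, at 4251, 2528 and 5765 normalized counts for NFE2L2 and 11723, 5881 and 13108 for STAT3. Their values without LN/PC monoculture 2 are not given here. Of the 12 regulators, 1 was called higher for co-culture on LN/PC, where 7.80% of all tested genes were, and 1 on silk, where 2.91% of all tested genes were called higher. In silk against LN/PC monocultures 5 regulators were lower (5.79% of all tested genes), and in silk against LN/PC co-cultures 1 was higher (18.5%) and 5 were lower (17.6%).

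Among the zinc transporters, SLC30A1 and several importers were higher in silk than in LN/PC co-cultures. SLC30A1, the exporter of the cell surface and itself a target of MTF1, gave 1057, 1015 and 1421 normalized counts in silk co-cultures and 552.6, 649.4 and 728.6 in LN/PC co-cultures. It was higher on silk by 0.85 ± 0.21 (log2, SE, adjusted p = 0.00529 by limma), where MT1E, MT1X and MT2A were lower. On LN/PC it differed by -0.03 ± 0.21 between co-cultures and monocultures (adjusted p = 0.941), and in fibroblasts it was lower by 0.82 ± 0.19 (-0.82, adjusted p = 0.00314), as the members were. Of the 7 exporters tested, 2 were higher in silk than in LN/PC co-cultures, as were 18.5% of all tested genes. The other was SLC30A2, a vesicle exporter (2.41 ± 0.57, adjusted p = 0.00404), a gene of few counts named after its values were seen. For co-culture on LN/PC, 0 of 7 exporters passed limma's threshold and 0 had an unadjusted p under 0.05.

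The importers brought 4 higher and 1 lower of 11 in silk against LN/PC co-cultures, beside 18.5% and 17.6% of all tested genes. SLC39A8, which also carries cadmium and manganese, was higher by 0.91 ± 0.27 (log2, SE, adjusted p = 0.0162), SLC39A4 by 0.83 ± 0.24 (adjusted p = 0.0135) and SLC39A6 by 0.68 ± 0.16 (adjusted p = 0.00352). SLC39A7, which releases zinc from the endoplasmic reticulum, was lower (-0.83 ± 0.19, adjusted p = 0.00386). SLC39A14, a carrier of zinc, iron and manganese, was lower on silk in monocultures (-1.20 ± 0.25, adjusted p = 0.00744) and was the importer with a called interaction (1.53 ± 0.36, adjusted p = 0.013). Its LN/PC monocultures were widely spread, at 1513, 665.1 and 1691 normalized counts, and its values without LN/PC monoculture 2 are not given here. SLC39A10, a surface importer, was not called in any comparison of epithelial groups and was lower in fibroblasts (-1.25 ± 0.12, adjusted p = 3.76e-06). For co-culture on LN/PC, 0 of 11 importers passed limma's threshold, and 1 had an unadjusted p under 0.05, in the lower direction.

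**Figure D5:**
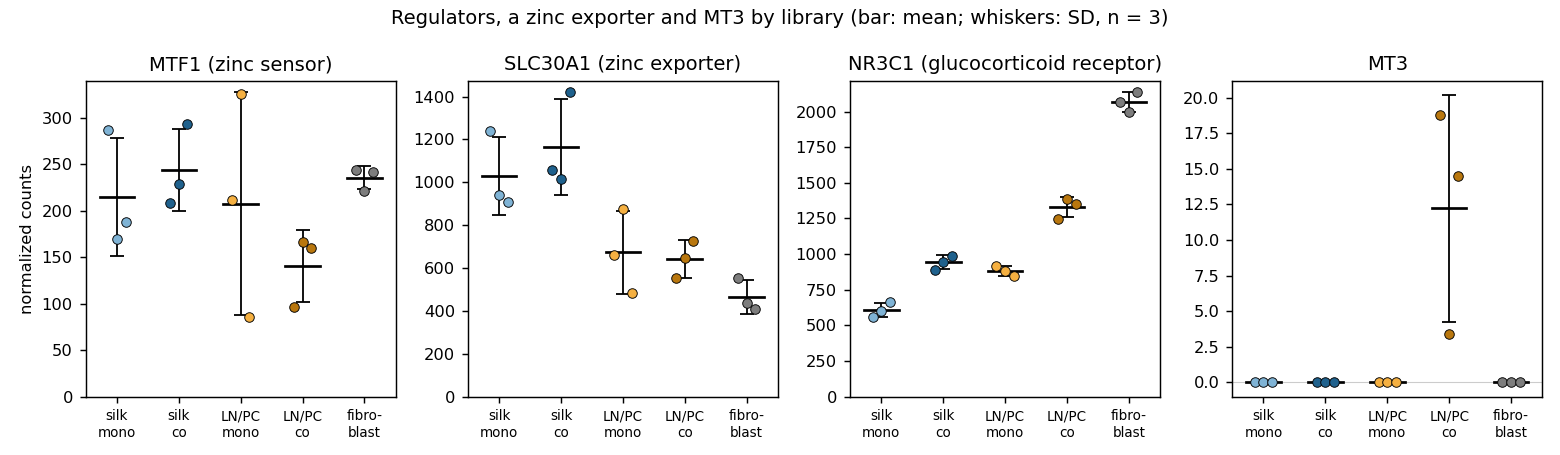
Normalized counts (linear axis, one per panel) of MTF1, SLC30A1, NR3C1 and MT3 in the 5 groups. Points are libraries, bars are means and whiskers are SD (n = 3). MTF1 groups overlap on LN/PC, SLC30A1 is lower in LN/PC than in silk co-cultures, NR3C1 is higher in both co-cultures than in their monocultures, and MT3 lies above 0 in the LN/PC co-cultures (3.40 to 18.8).

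Of the genes known to respond to glucocorticoids, a few were called with co-culture and FKBP5 and TSC22D3 were not. FKBP5, a sensitive glucocorticoid target, differed by -0.09 ± 0.15 (log2, SE, adjusted p = 0.76) for co-culture on LN/PC, and TSC22D3, another, by -0.18 ± 0.14 (adjusted p = 0.414). Of 13 genes tested, 3 were called higher there, against 7.80% of all tested genes: CRISPLD2 (1.90 ± 0.57, adjusted p = 0.0383), ERRFI1 (0.80 ± 0.17, adjusted p = 0.00453) and SGK1 (0.77 ± 0.17, adjusted p = 0.00676). CRISPLD2 was also higher in fibroblasts than in epithelial monocultures, by 5.32 ± 0.48 (adjusted p = 1.78e-06). On silk, PER1 (0.95 ± 0.20, adjusted p = 0.0107) and ERRFI1 (0.92 ± 0.17, adjusted p = 0.00474) rose with co-culture, the 2 called of 13, against 2.91% of all tested genes. TSC22D3 was lower on silk than on LN/PC in monocultures (-0.58 ± 0.14, adjusted p = 0.0124) and in co-cultures (-0.76 ± 0.14, adjusted p = 0.000498). Between monocultures, 2 of the 13 were lower on silk (5.79% of all tested genes) and 1 was higher (5.88%). The higher gene was SGK1 (0.57 ± 0.17, adjusted p = 0.0439). Between co-cultures, 5 were lower on silk (17.6% of all tested genes) and 1 was higher (18.5%).

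The oxidative and metal stress genes, several of which metals also induce, were lower or not called in LN/PC co-cultures, where MT1E, MT1X and MT2A were higher. With co-culture on LN/PC, 4 of 15 were called lower (4.72% of all tested genes) and 0 higher by limma (0 higher also at an unadjusted p under 0.05), among them NQO1, a quinone reductase (-0.78 ± 0.15, log2, SE, adjusted p = 0.00172), and GPX3, a secreted glutathione peroxidase made in the proximal tubule (-1.03 ± 0.27, adjusted p = 0.0188). In silk against LN/PC co-cultures, 10 of 15 were higher, against 18.5% of all tested genes. HMOX1, a haem-degrading enzyme induced by metals, gave 896.2, 656.8 and 594.4 normalized counts in silk co-cultures and 131.8, 138.4 and 79.13 in LN/PC co-cultures (2.63 ± 0.33, adjusted p = 1.95e-05). The heat shock gene HSPA1A was higher there by 1.65 ± 0.20 (adjusted p = 1.18e-05) and its near-identical copy HSPA1B by 2.33 ± 0.24 (adjusted p = 3.35e-06), with reads that the counting could have split between them. HMOX1 and MT1E thus stood on opposite sides in the same pair of groups. In the interaction, 5 of the 15 were called higher (3.15% of all tested genes), while MT1E and MT1X were called lower.

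Iron storage genes were higher in silk than in LN/PC co-cultures. FTH1, the ferritin heavy chain, gave 100873, 102645 and 114059 normalized counts in silk co-cultures and 35115, 43655 and 33612 in LN/PC co-cultures (1.51 ± 0.29, log2, SE, adjusted p = 0.000967). FTL, the light chain, was higher by 1.68 ± 0.32 (adjusted p = 0.000835), and 6 of 13 iron genes were higher (18.5% of all tested genes) and 1 lower (17.6%). FTH1 rose with co-culture on silk (1.61 ± 0.29, adjusted p = 0.00406) and its interaction was called (1.61 ± 0.41, adjusted p = 0.023). Between silk and LN/PC monocultures it differed by -0.10 ± 0.29 (adjusted p = 0.855), and 0 of the 13 iron genes passed limma's threshold there, with 2 higher and 1 lower at an unadjusted p under 0.05. For co-culture on LN/PC the single iron gene called was STEAP3, an iron reductase (0.68 ± 0.18, adjusted p = 0.022). STEAP3 also rose with co-culture on silk (0.84 ± 0.18, adjusted p = 0.0142) and was higher in fibroblasts (2.43 ± 0.14, adjusted p = 3.47e-08). Of 17 copper genes, 3 rose with co-culture on LN/PC, where 7.80% of all tested genes were called higher. They were LOX (2.08 ± 0.17, adjusted p = 2.65e-07), the copper-dependent collagen cross-linker, MOXD1 (0.74 ± 0.14, adjusted p = 0.00196) and HEPH, a copper ferroxidase listed at 0 in the 6 epithelial monocultures. LOX also rose with co-culture on silk (1.77 ± 0.17, adjusted p = 1.27e-05), where fibroblast RNA was close to absent, and was higher in fibroblasts than in epithelial monocultures by 3.23 ± 0.14 (adjusted p = 2.63e-09). Fibroblasts held 2942 ± 84.6 normalized counts of MOXD1 and 968 of HEPH on average, against 442 ± 68.5 of MOXD1 in LN/PC monocultures.

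Among themselves, MT1E, MT1X and MT2A had the closest profiles over the 12 epithelial and co-culture libraries. The measure of likeness was the root-mean-square difference of log2(value + 1) after centring each gene on its mean. It was 0.177 between MT1E and MT1X, 0.177 between MT1E and MT2A and 0.265 between MT1X and MT2A. Every pair with MT1F or MT1M was between 0.380 and 0.498. Among 9989 other genes, those nearest MT2A were RPL37A (0.176), JOSD2 (0.187), RALA (0.188), GADD45B (0.194) and TMED3 (0.197), where the median gene stood at 0.544. Among those nearest MT1X were RPS13 (0.234), RPS18 (0.239), ZBTB47 (0.239) and NT5E (0.244), against a median of 0.590. RPL37A, RPS13 and RPS18 encode ribosomal proteins. All profiles share the same libraries and their scaling, so the likeness is a description.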

How the data were processed

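RNA of 15 libraries in 5 groups of 3 was analysed, grouped by sample title. Per the submitters' processing notes the tools were Salmon 1.10.3, which quantifies reads, and DESeq2, while genome build, annotation and options were not given in the sources used. The authors deposited log2 values of a variance-stabilizing form with a floor of 5.53664461. Inverting that form gave normalized counts, a step the planned design had left conditional on the table, and the median ratio per library was then 1.01175 over 13121 genes. Low values did not fall on whole reads, so no count model was fitted. Reads per library were about 8.84 to 14.6 in units of 1e6, and floors of 3 reads and intervals cover counting error only.

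Tests were made in R 4.3.3 with limma 3.58.1 (trend option) on log2(value + 1), a scale that understates changes of low genes, for genes with at least 10 in at least 3 libraries. The 12 epithelial and co-culture libraries were fitted together, and the 9 monocultures for the fibroblasts. Calls had an adjusted p (Benjamini-Hochberg) under 0.05. The code was tested on simulated data. Whether replicates came from separate cultures is not in the labels, so p-values reflect only the spread among these libraries, possibly technical.

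The members and gene lists were chosen with earlier results of these data known. Of each list, at most 4 called genes with the largest difference and a mean of at least 100 were named, with MTF1, SLC30A1, SLC39A10, NR3C1, FKBP5 and TSC22D3 always given. Not every likeness value is reported here. Markers of endothelium and leukocytes were also looked for: 1 of 5 had a row in each list, at 0 to 97.7 and 85.8 to 884.7 normalized counts. Alternatives covered the pseudocount (10), the low-value filter, the deposited log2 values, other rescalings, the libraries in the fit, the replicate number as a block and each library left out.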

Additional observations from a re-analysis of the deposited data

Results flagged for a closer look

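For MT1X the co-culture difference on silk was lower than that on LN/PC by a test of the difference itself (-1.25, log2, adjusted p = 0.0203 by limma, an interaction term). Silk co-cultures gave 207.4 to 256.5 and silk monocultures 225.8 to 260.9 normalized counts, whereas LN/PC co-cultures gave 270.9 to 427.1 and LN/PC monocultures 134.4 to 216.9. The same test set MT1E apart (-0.84, log2, adjusted p = 0.0399). By the median of fibroblast-specific genes, fibroblast RNA made up 13.0% of the LN/PC co-cultures and 0.0457% of the silk co-cultures. The part of fibroblast RNA in these results was not tested.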

How the results depend on the processing

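Replicate numbers did not pair the samples, since only 2 of 18 correlations between same-numbered samples were over 0.1 (range -0.254 to 0.189). With the number as a replicate block, the same number of members was called in every comparison, MT1F between monocultures keeping an adjusted p of 0.0474, and counts of all genes called moved from 1685 to 1317, 5214 to 4811, 545 to 443, 1807 to 1558, 1116 to 942 and 8460 to 8365, in the order silk against LN/PC monocultures, silk against LN/PC co-cultures, co-culture on silk, co-culture on LN/PC, interaction and fibroblasts. With only the 6 compared libraries in the fit, 0 members were called between monocultures (754 genes in all), co-culture on silk gave 1174 genes and co-culture on LN/PC 1088. Rescaling on epithelium-restricted genes moved the median of all genes by 0.26 between monocultures, 0.21 for co-culture on LN/PC and -0.17 for the interaction. The share of calls that were higher went from 50.4% to 83.7%, 62.3% to 90.4% and 40.7% to 20.4%, members called went to 2 between monocultures and to 0 between co-cultures, and co-culture on LN/PC kept 3. Upper-quartile rescaling moved that share from 50.4% to 60.5% between monocultures and from 77.1% to 66.1% for co-culture on silk.

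Leaving out 1 library gave 0 to 3 members called between monocultures (695 to 3208 genes), 0 to 3 between co-cultures (3415 to 4745), 0 to 0 for co-culture on silk (207 to 559), 2 to 3 for co-culture on LN/PC (753 to 2007), 0 to 4 for the interaction (465 to 1359) and 4 to 5 for fibroblasts (6865 to 8673). The differences that changed sign were all among values that had not been called. Between monocultures MT2A went to 0.0687 with upper-quartile and 0.25 with epithelium-restricted rescaling, and ran from -0.15 to 0.23 over the left-out libraries. Between co-cultures MT1F went to 0.0519 with epithelium-restricted rescaling and ran from -0.21 to 0.13 over the left-out libraries, and MT1M ran from -0.0639 to 0.49. For co-culture on silk, upper-quartile rescaling took MT1E to -0.025 and MT1M to -0.0267. Over the left-out libraries MT1E ran from -0.032 to 0.14 and MT1M from -0.15 to 0.30. The cause was not tested. With 3 libraries a group and 1 read worth about 1 normalized count, MT1M, at 18.67 to 65.44 in epithelial cultures, had the fewest reads there of the 5 members.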

Other observations

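The members have short transcripts, with median annotated lengths of 494 (MT1X) to 704 (MT1E) bases. Of the 1855 tested genes with a median transcript under 800 bases, 10.6% were called higher with co-culture on LN/PC (median log2 difference 0.04), against 7.89% of the 10836 longer genes (median -0.05). In silk against LN/PC co-cultures, 22.4% of the short and 17.2% of the longer genes were called lower. MT1E, MT1X and MT2A were called in both comparisons, which share the LN/PC co-cultures, and the part of transcript length in this was not tested.

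In LN/PC monoculture 2, the library with the highest value of all 5 members in its group, MTF1 was also highest, at 2.18 times the mean of the other pair (325.1 against 149.0 normalized counts), and SLC30A1 stood at 1.53 times. FKBP5 (1.28 times), TSC22D3 (1.11 times) and SLC39A10 (1.09 times) were highest there too, whereas NR3C1 stood at 1.00 times and in the middle of its group.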
